A study of Caenorhabditis elegans with 2 samples.

Results

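The genes described here encode Wnt signals of Caenorhabditis elegans, machinery that exports them and Frizzled receptors that bind them. A fixed list of 10 genes was taken from the 19973 protein-coding genes on the nuclear chromosomes. It held 5 ligand genes (cwn-1, cwn-2, egl-20, lin-44 and mom-2), 2 secretion genes (mom-1 and mig-14) and 3 Frizzled receptor genes (lin-17, mig-1 and mom-5). Each gene was given a window from 5 kb upstream of its annotated 5′ end to its far end, and the regions that overlapped the window by at least 1 bp were taken from each peak list. The genes were chosen by their place in the pathway, with the signal ranks of their regions in these same lists already known, so what follows is a description and carries no test.

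The data were chromatin immunoprecipitation sequencing (ChIP-seq) peak lists for ELT-3, a GATA-type transcription factor of the worm epidermis. ELT-3 was tagged with enhanced green fluorescent protein in strain OP75, which carries the integrated transgene wgIs75 in an unc-119(ed3) background. The chromatin was prepared from mixed-stage embryos, as whole organisms with both sexes pooled and age unknown, in 2 biological replicates of 1 group. Epidermal cells are thus only a part of the material, and a region cannot be assigned to a cell type. Control data were not analysed here.

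Wnt proteins are lipid-modified signals. Porcupine attaches the lipid in the endoplasmic reticulum, Wntless carries the modified Wnt to the cell surface, and Frizzled receptors on the receiving cell pass the signal to beta-catenins. In the worm, Wnts set the axis of asymmetric divisions, including those of epidermal cells, and guide migrating neuroblasts.

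Only the secretion genes held a region that passed the authors' threshold of reproducibility between replicates. The porcupine gene mom-1 carried one of the highest nuclear regions of the whole experiment, inside its last intron. The Wntless gene mig-14 carried one of the lowest of the reproducible list, far upstream. None of the 5 ligand genes and none of the 3 Frizzled genes on the list had a reproducible region in its window. That gave 2 of 10 genes, where 1073 of all 19973 genes had one, or 5.37%. The list of genes was drawn up with this result known, so nothing is read from the difference. With the 637 highest regions of replicate 2 in place of the reproducible list, mom-1 had a region and mig-14 did not, and with those of replicate 1 both had. With each region given only to the gene of the nearest 5′ end, neither had one.

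Both reproducible regions are shown because they hold the sequence that GATA factors recognise. The letters were read on the plus strand of the RefSeq copy of WBcel235, the assembly that matches ce11. Capitals mark the hexamer AGATAA or its variant AGATAG, and the hexamer TGATAA or its variant TGATAG, searched on both strands. The letters TTATCA are thus TGATAA on the minus strand. The mom-1 stretch is the whole listed region, chrX:6296507-6296697. The mig-14 stretch is the 201 bp centred on the summit, chrII:13737774-13737974.
mom-1: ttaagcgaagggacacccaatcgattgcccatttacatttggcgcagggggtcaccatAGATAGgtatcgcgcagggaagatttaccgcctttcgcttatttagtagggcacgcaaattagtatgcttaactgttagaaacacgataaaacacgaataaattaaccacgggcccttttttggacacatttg
mig-14: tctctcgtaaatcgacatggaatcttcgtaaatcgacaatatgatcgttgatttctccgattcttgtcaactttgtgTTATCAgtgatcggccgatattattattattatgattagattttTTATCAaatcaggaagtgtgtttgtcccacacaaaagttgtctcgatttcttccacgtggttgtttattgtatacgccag

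The mom-1 region held 1 match, AGATAG, whose centre lay 21.5 bp to the left of the summit. The mig-14 stretch held 2 matches, both TGATAA on the minus strand, with centres 20.5 bp to the left and 23.5 bp to the right of the summit. Among the 614 nuclear reproducible regions, 52.0% of summit-centred windows of 191 bp held at least 1 match, and 32.7% of windows of 201 bp held 2 or more. A match of these letters is thus common among reproducible regions, and it is a description of sequence, not evidence of a bound site.

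mom-1 (WBGene00003394, chromosome X, 6293112 to 6298305, plus strand) encodes the worm porcupine, the enzyme that adds the lipid to Wnt proteins. Its region spanned 191 bp and had its summit at 6296589, 3477 bp downstream of the 5′ end. The summit lay in intron 7 of 7, which at 1299 bp is the longest intron of the gene. The region began 14 bp after the preceding exon and ended 1096 bp before the last one. No other annotated gene overlapped the summit.

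The signal value of a region is a score from the authors' peak caller with no stated unit, and its scale differs between lists. The mom-1 region had a signal of 139 in the pooled list, 78.8 in the replicate 1 list and 62.5 in the replicate 2 list. These placed it 25 of 12702 in the pooled list, 31 of 19168 in replicate 1 and 17 of 26381 in replicate 2. Most of the regions above it were mitochondrial. Among nuclear regions alone it was 5 in the pooled list, 8 in replicate 1 and 3 in replicate 2. Both replicates thus put it at the very top of their lists, in the highest 0.162% of replicate 1 and the highest 0.0644% of replicate 2. The summits of the 3 lists lay within 43 bp of each other. In the reproducible list it was 2 of 130 regions on the X chromosome and 2 of 158 regions with a summit in introns of protein-coding genes.

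The nearest annotated 5′ end to the mom-1 summit was not that of mom-1. It was that of cest-16, a carboxylesterase-domain gene, 3353 bp from the summit. The 5 kb windows of cest-16 and of lev-9, which lies on the other side of mom-1, also took in this region. Peak lists do not tell which of these genes, if any, the region acts on.

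A weaker region lay 780 bp upstream of mom-1. It had a signal of 26.3 in the pooled list (rank 2156), 14.04 in replicate 1 (rank 4787) and 9.25 in replicate 2 (rank 4296). Its summit fell inside a tRNA gene, held none of the GATA sequences within 50 bp, and lay 600 bp from the 5′ end of lev-9. It was the only one of the 24 pooled regions in the windows of the 10 genes with a gene for a small structural RNA (ribosomal, transfer, nuclear or nucleolar) closer than 200 bp.

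mig-14 (WBGene00003246, chromosome II, 13741738 to 13749983, plus strand) encodes the worm Wntless, which carries Wnts through the secretory pathway. Its reproducible region lay 3864 bp upstream of the 5′ end (13737684 to 13738063). It had a signal of 42.2 in the pooled list (rank 630), 27.6 in replicate 1 (rank 556) and 13.5 in replicate 2 (rank 1457). The last of the 637 reproducible regions had a signal of 42.0 and the first pooled region outside them, at rank 638, also had 42.0. The mig-14 region was therefore close to the threshold. The gene next below it among the 10 was cwn-1, whose highest pooled region had a signal of 30.5. The mig-14 summits of the pooled and replicate lists lay within 1 bp of each other, closer than at mom-1.

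That region was intergenic. The nearest 5′ end, 1554 bp away, was that of R06B9.5, annotated by RefSeq as a phosphoinositide phospholipase C, which is encoded on the same strand and ends upstream of the region. Another pair of pooled regions flanked it at 4662 bp upstream (signal 24.8, rank 2563) and 2355 bp upstream (signal 16.7, rank 7853) of mig-14. All 3 overlapped a region in each replicate list. None of the pooled regions lay in the body of mig-14, where replicate 1 and replicate 2 each listed 1 region, at different places.

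**Figure D1:**
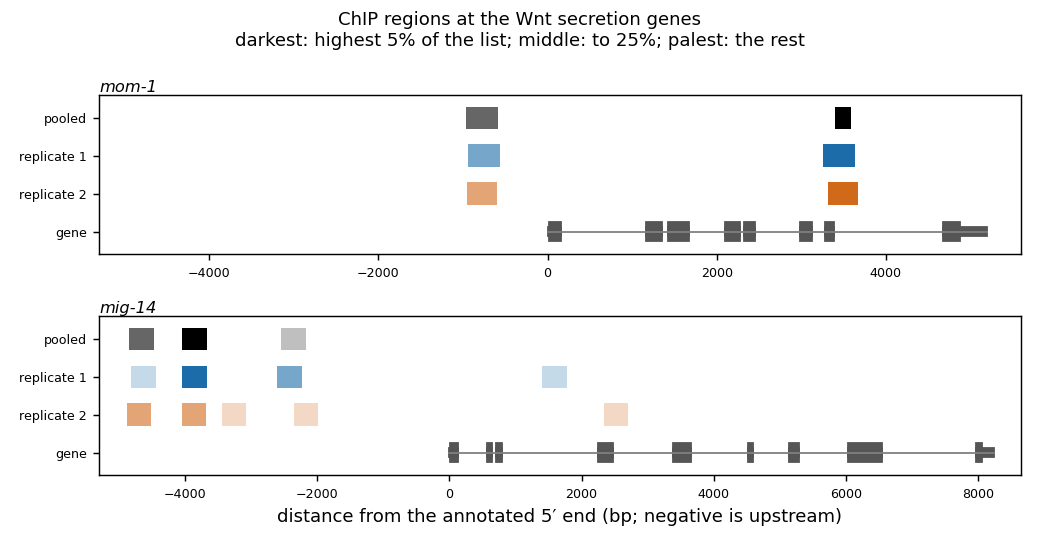
Regions of the pooled and replicate lists at mom-1 and mig-14, by distance from the annotated 5′ end in bp, with coding exons as tall boxes and untranslated exon parts as low boxes. The darkest shade marks the highest 5% of a list, the middle shade ranks up to 25% and the palest shade the rest; the mom-1 intron region is darkest in all 3 lists, and the mig-14 region at 3864 bp upstream is darkest in the pooled and replicate 1 lists.

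The ligand genes had regions in the relaxed lists only. These lists hold peaks and background regions, and most genes have some. At least 1 pooled region was found in the windows of 9 of the 10 genes (59.6% of all genes), at least 1 replicate 1 region in 10 of 10 (74.0% of all genes) and at least 1 replicate 2 region in 10 of 10 (83.7% of all genes). A pooled region that overlapped a region in each replicate list was found in 8 of 10 genes (40.7% of all genes), the exceptions being cwn-2 and mom-2. The windows of the 10 genes were longer than usual, with a median of 8.86 kb against 7.03 kb over all genes. Per 100 kb of window, these genes had 23.7 pooled regions against 13.6 over all gene windows. The densities were 27.7 against 20.3 in replicate 1 and 37.6 against 28 in replicate 2. Taken as a set, these genes thus had denser regions as well as longer windows, and no test was made of either. The pooled regions were unevenly spread, with 7 at lin-17 and 4 at mig-1. There was 1 each at cwn-1, egl-20 and mom-5, none at cwn-2, and 2 or 3 at each other gene. lin-17, mig-1, lin-44 and mom-5 lie on chromosome I, which had the most pooled regions of any chromosome (2520). Of these, lin-44 had 3 and mom-5 had 1. Whether the chromosome bears on the counts was not tested.

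cwn-1 (WBGene00000857, chromosome II, 130983 to 133598, minus strand) encodes a Wnt that acts with other Wnts in cell migration. Its single pooled region lay 1987 bp upstream, with a signal of 30.5 (rank 1425). In replicate 2 the region had a signal of 15.1 (rank 1103), and in replicate 1 it had 12.7 (rank 6498). It was thus in the highest 4.18% of replicate 2 but only within the highest 33.9% of replicate 1. The summit fell in a coding exon of the divergent gene K10B4.1, annotated by RefSeq as a peroxidase, 119 bp from its 5′ end, so it lay much nearer the start of that gene than that of cwn-1.

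cwn-2 (WBGene00000858, chromosome IV, 10067816 to 10070251, plus strand) encodes another Wnt with roles in the nervous system. It was the only one of the 10 with no pooled region. Replicate 1 listed 2 regions, the higher with a signal of 16.4 (rank 2855) and a summit just past the gene end. Replicate 2 listed 2 others, the higher with a signal of 7.84 (rank 6880) and a summit 4655 bp upstream. No region of one replicate overlapped a region of the other.

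egl-20 (WBGene00001188, chromosome IV, 9812357 to 9815532, minus strand) encodes a Wnt made in the tail that directs the migration of Q neuroblast descendants. Its pooled region had a signal of 26.2 (rank 2173), with 19.9 in replicate 1 (rank 1541) and 7.92 in replicate 2 (rank 6661). The summit was in the 3′ UTR, 2949 bp from the 5′ end. Its rank was higher in replicate 1 than in replicate 2, the reverse of cwn-1.

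lin-44 (WBGene00003029, chromosome I, 4126056 to 4129310, plus strand) encodes a Wnt made by epidermal cells of the tail tip, which orients the division of neighbouring cells. It had 3 pooled regions, the highest in intron 4 of 6 with a signal of 19.1 (rank 5364). The others lay 1776 bp upstream, in an intron of H31G24.1, at 18.7 and 847 bp upstream at 15.2. All 3 were found in both replicate lists, with ranks from 5014 to 17568 in replicate 1 and from 6410 to 17841 in replicate 2. By its highest pooled region it came last among the 9 genes with a pooled region. TGATAA on the minus strand was centred 8.5 bp from the intron summit, and the upstream summits had no GATA sequence within 50 bp.

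mom-2 (WBGene00003395, chromosome V, 8355988 to 8358185, plus strand) encodes the Wnt of the early embryo that signals to the endoderm and mesoderm precursor. Its 2 pooled regions each rested on 1 replicate. The region 1621 bp upstream had a pooled signal of 23.1 (rank 3124) and 20.1 in replicate 1 (rank 1466), with no overlapping region in replicate 2. The region 4365 bp upstream had a pooled signal of 20.2 (rank 4564) and 15.5 in replicate 2 (rank 1051), with no overlapping region in replicate 1. That summit lay 48 bp from the 5′ end of srsx-22, annotated by RefSeq as a G-protein-coupled receptor family gene. Judged by its best region alone mom-2 ranked well in both replicates, but these were different places.

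**Figure D2:**
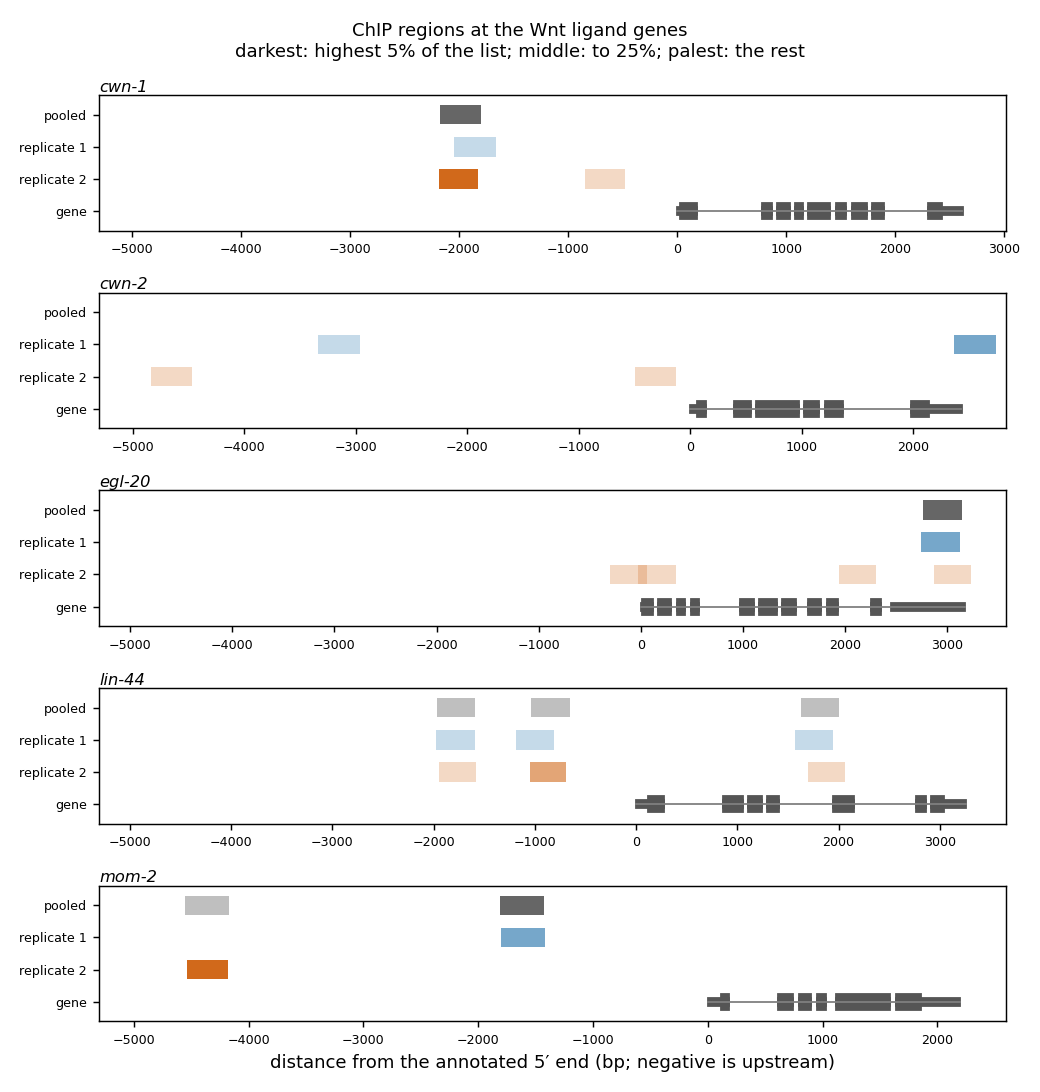
Regions of the pooled and replicate lists at the 5 Wnt ligand genes, by distance from the annotated 5′ end in bp, with exons as grey boxes and shades as for ranks within the highest 5%, up to 25% and the rest of each list. The pooled regions of cwn-1, egl-20 and lin-44 overlap a region of each replicate, with a replicate summit more than 100 bp from the pooled one at 1 region of each gene, whereas cwn-2 and mom-2 have no such region.

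The listed Frizzled receptor genes had 12 of the 24 pooled regions in the windows of the list, most of them inside lin-17 and mig-1. Their windows spanned 15667 bp at lin-17, 13888 bp at mig-1 and 9464 bp at mom-5, against a median of 8.86 kb for all 10. No count per window length was made for the receptors alone. lin-17 (WBGene00003006, chromosome I, 2706883 to 2717549, plus strand) encodes a receptor of LIN-44 that acts in asymmetric divisions. It had 7 pooled regions, the most of the 10 genes, in a window of 15.7 kb, which was also the longest. The highest lay in a coding exon 5663 bp downstream of the 5′ end, with a pooled signal of 28.9 (rank 1644) and 25.3 in replicate 1 (rank 705). No replicate 2 region overlapped it. Replicate 2 instead had its highest lin-17 region 1368 bp downstream, at 10.4 (rank 3041), which overlapped a pooled region with a signal of 16.6 in intron 3. Of the 7 pooled regions, 5 were in introns and 1 was 660 bp upstream. The gene has 5 annotated transcripts, and some start farther in. The intron summits 1653, 2540 and 3697 bp downstream lay 937, 496 and 627 bp from the nearest transcript start.

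mig-1 (WBGene00003238, chromosome I, 948569 to 957456, minus strand) encodes a Frizzled that acts in neuronal migration. Its highest pooled region had the summit closest to a 5′ end of its own gene among the 24, at 218 bp upstream. It had a signal of 22.3 in the pooled list (rank 3443), 11.1 in replicate 1 (rank 9592) and 6.25 in replicate 2 (rank 12223). The sequence TGATAA was centred 0.5 bp from that summit. The region 2853 bp downstream, in intron 1 of 8, had a pooled signal of 19.4 (rank 5171) and 2 matches, and its replicate summits were within 2 bp of the pooled one. Neither was near the reproducibility threshold in the pooled list.

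mom-5 (WBGene00003397, chromosome I, 9965574 to 9970037, plus strand) encodes a Frizzled that receives the MOM-2 signal in the early embryo. Its single pooled region lay 3359 bp upstream, with signals of 25.1 in the pooled list (rank 2505), 17.2 in replicate 1 (rank 2439) and 8.77 in replicate 2 (rank 5038). The summit was 238 bp from the 5′ end of algn-10, annotated by RefSeq as a glucosyltransferase of protein glycosylation. No GATA sequence lay within 50 bp of the summit. As at cwn-1, the region was much closer to the start of the neighbouring gene.

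**Figure D3:**
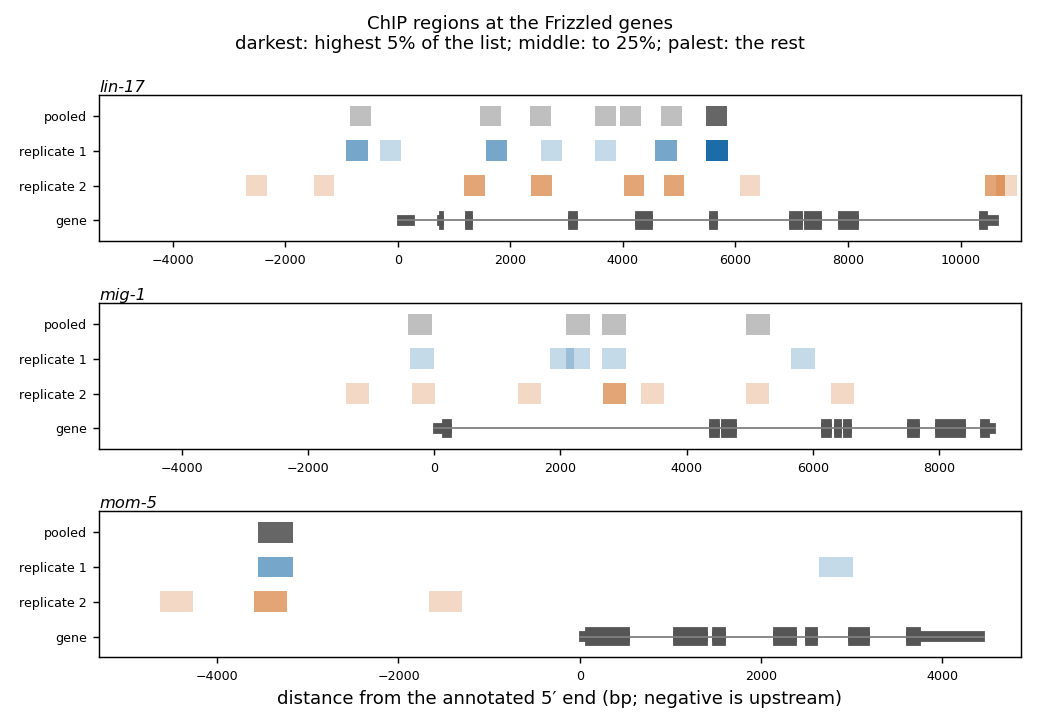
Regions of the pooled and replicate lists at the 3 listed Frizzled genes, by distance from the annotated 5′ end in bp, with exons as grey boxes and shades as for ranks within the highest 5%, up to 25% and the rest of each list. The regions of lin-17 and mig-1 are spread over the gene bodies, and 3 of the 7 pooled regions at lin-17 and 2 of the 4 at mig-1 overlap a region in each replicate list. At mom-5 the 1 pooled region, upstream, is shared by all 3 lists. The mom-5 window holds 2 regions in replicate 1 and 3 in replicate 2.

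Over the 10 genes ordered by highest region, mom-1 came first in the pooled and both replicate lists. lin-44 was 8 in both replicates and 9, the last, in the pooled list. Its highest region was 1759 bp downstream of the 5′ end in replicate 1 and 870 bp upstream in replicate 2. mom-5 was 6 in replicate 1, 7 in replicate 2 and 6 in the pooled list. The next in replicate 1 were mig-14 (rank 556) and lin-17 (705), whereas in replicate 2 they were mom-2 (1051) and cwn-1 (1103). mig-14 was 4 of 10 in replicate 2. cwn-1 was 3 of 10 in replicate 2 and 9 of 10 in replicate 1. Across the 10 genes the ranks in the replicates had a Spearman rho of 0.45, and of 0.25 across the 9 genes other than mom-1. For cwn-2, lin-44, mom-2, lin-17 and mig-1 the highest regions of the replicates lay at different places. The rho values thus compare genes, not the same regions. Below mom-1 the order of most other genes differed between the replicates.

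**Figure D4:**
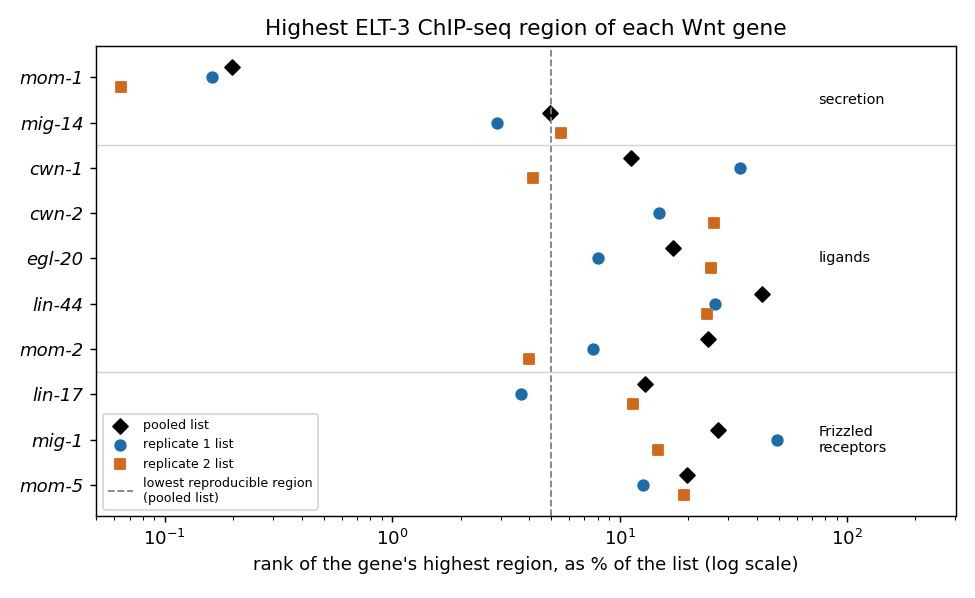
Rank of the highest region in each gene's window, as a percentage of the list on a log scale, for the pooled list and each replicate list, with the lowest reproducible region of the pooled list as a dashed line. mom-1 lies far to the left of the other genes in all 3 lists, and the replicates of the other genes often lie apart.

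Region by region, 16 of the 24 pooled regions at these genes overlapped a region in each replicate list, or 66.7%. Over all nuclear pooled regions this share was 56.7%. Below the reproducibility threshold the share was 14 of 22, or 63.6%, and over all nuclear pooled regions below it 54.5%. Of the 24 summits, 12 lay upstream of the gene, 10 in its introns, 1 in a coding exon and 1 in a 3′ UTR. Of the 12 upstream, 4 lay within 1 kb of the outermost annotated 5′ end, at mom-1, lin-17, lin-44 and mig-1. Starts of shorter transcripts, as at lin-17, were not counted here. For 15 of the 24 the nearest annotated 5′ end was that of the Wnt gene itself, and these belonged to 5 genes. Neither reproducible region was among them. The window of each gene sets where its summits can lie. These positions were not counted over all nuclear pooled regions, so no trait of the Wnt genes is read from them.

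**Figure D5:**
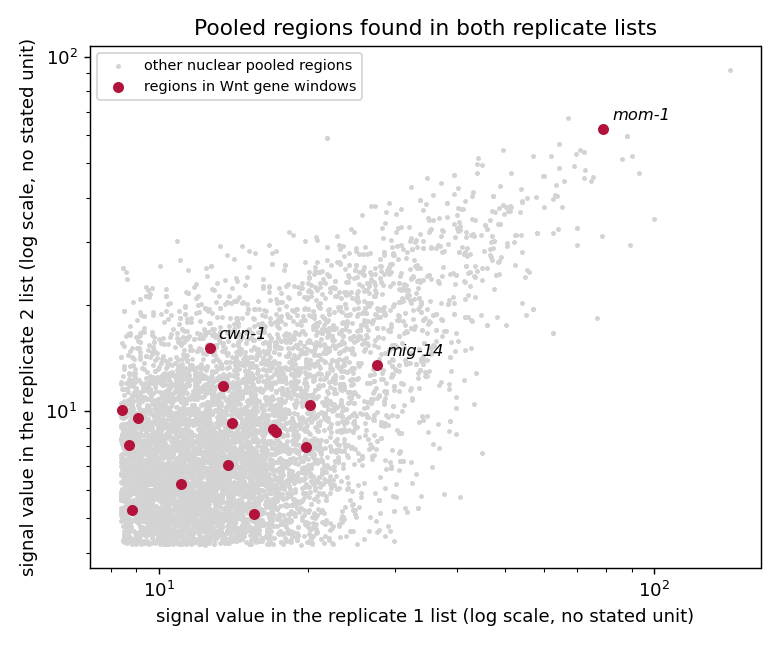
Signal value of each nuclear pooled region in the replicate 1 list and in the replicate 2 list, both on log scales with no stated unit, for regions found in both. The mom-1 intron region, at 78.8 and 62.5, stands near the top right, and the other regions at the Wnt genes lie within the main cloud.

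The GATA sequences were within 50 bp of 6 of the 24 summits, or 25%. The share over all nuclear pooled regions was 24.6%, and over nuclear reproducible regions 38.4%. Within 100 bp of the summit the share was 8 of 24 at these genes, or 33.3%, against 41.6% of nuclear pooled regions. Anywhere in the listed region it was 11 of 24, or 45.8%, against 62.2%. The share at these genes was thus near that of the pooled list within 50 bp and below it in the wider stretches, with no test made. The 6 within 50 bp were the reproducible regions of mom-1 and mig-14, the intron region of lin-44, 1 region of lin-17 and 2 of mig-1. GAGAGA, on either strand, was within 50 bp of 1 of the 24 summits, at mig-1, against 13.1% of nuclear pooled regions and 27.4% of nuclear reproducible ones. The share of G and C within 50 bp of the summits had a median of 40.1% at these genes and 36.6% over nuclear pooled regions.

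For the genes without a reproducible region in the window, the nearest one on the chromosome lay 9.89 kb to 153 kb from the gene. The closest was for mom-5, 9.89 kb beyond its far end, with a signal of 42.1. It was also the region at sys-1 described next. The farthest was for cwn-2. For lin-44 it lay 42.9 kb away, at egg-5.

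Among 23 other genes of the Wnt pathway, 3 had a reproducible region by the same window, beside 5.37% of all genes. The count was 4 with the 637 highest regions of replicate 2 and 1 with those of replicate 1. The 3 genes were 1 of 11 cytoplasmic transducers and 2 of 5 genes of beta-catenins and their TCF partner. None of 5 further receptors and modulators (cfz-2, lin-18, cam-1, sfrp-1 and vang-1) and neither retromer gene (vps-35 and snx-3) had one. sys-1, a beta-catenin of asymmetric divisions, had 2 on chromosome I. One, 4205 bp upstream (9988927 to 9989045), had a signal of 120.4 and rank 35, and ranked 44 in replicate 1 and 35 in replicate 2. It lay 133 bp from the histone gene his-68. The other, at the far end of sys-1, had a signal of 42.1 (rank 633) and lay 266 bp from the 5′ end of eif-3.C, a translation initiation factor gene.

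hmp-2, the beta-catenin of cell junctions, had a region 1404 bp upstream with a signal of 51.7 (rank 367), 224 bp from the 5′ end of K05C4.7. gsk-3, the kinase that marks beta-catenin for destruction, had one 3212 bp upstream with a signal of 46.5 (rank 479), in a coding exon of Y18D10A.4 and 100 bp from its 5′ end. As with mom-1 and mig-14, each of these regions was nearest to the start of another gene. The TCF gene pop-1 and the beta-catenin genes bar-1 and wrm-1 had none. The Dishevelled gene mig-5 came closest to the threshold, with a pooled signal of 40.5 (rank 702).

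Genes whose highest reproducible region stood next to that of mom-1 by signal were taken as the most alike, over 1 pooled list. Above it were arrd-10 at 140.0, in an intron and ranked 23 in replicate 1 and 40 in replicate 2, and egg-5 and rpn-8, which share a region at 148 (ranks 26 and 19). Below it were pck-2 and R11A5.3, which share a region at 138 (ranks 27 and 32), and rpl-3 at 127 (ranks 39 and 22). The mom-1 region had a lower place in replicate 1 (31) than all of these but rpl-3, and a higher one in replicate 2 (17) than any of them.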

How the data were processed

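Per the file listings deposited with each library, relaxed lists of peaks and background were called on each replicate and on both pooled, always with a control. A list past an irreproducible discovery rate (IDR) threshold was derived from these. No aligner, peak caller or threshold is given in the sources used here. The deposited lists hold a signal score and a −log10 q-value per region; the score is the authors' value, its scale is not stated, and regions were ranked by it within each list only. The q-value was not used for ranking, since 534 of the 637 reproducible regions tie at the highest value. The reproducible list equals the 637 highest regions of the pooled list. Read depth is unknown.

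The ce11 lists were used, with WBcel235 and Ensembl release 115, and every region ended within its reference chromosome. Windows, overlaps, ranks and sequence matches were computed in Python 3.11.15, and the counting was tested on simulated data. Pooled and replicate regions were matched by an overlap of at least 1 bp, taking the highest. No test was made. The genes, the pathway list and the alternatives were chosen with earlier results of these data known, and GAGAGA was taken from them. Named genes were the 10, pathway genes with a reproducible region, neighbouring genes at the summits, and the 3 genes next above and below mom-1 by signal; pathway genes without a region are named with their counts, and mig-5 was chosen after its value was seen.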

Additional observations from a re-analysis of the deposited data

How the results depend on the processing

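Of 39 alternatives for the main results, 14 kept counts or ranks within 1.5 times and 25 did not. The gene and region counts among the 10 genes are small, so 1 gene moves them, and these 2 counts moved together. The 25 also include shares over all genes, the mom-1 rank among nuclear regions and the count of regions found in both replicates. Genes of the 10 with a reproducible region numbered 2. With windows from 2 kb upstream this was 1 gene with 1 region (3.55% of all genes), and with the gene body alone 1 gene with 1 region (1.67%, and 1 pathway gene). With windows from 1 kb upstream to 500 bp downstream of the 5′ end it was 0 with 0 regions (2.03%, and 0 pathway genes). With each region given only to the nearest 5′ end it was also 0 with 0 regions (2.86%, and 0 pathway genes). Among the 318 reproducible regions of highest signal it was 1 gene with 1 region (2.60%, and 1 pathway gene). In each case with 1 gene that gene was mom-1. With the 637 highest regions of 1 replicate in place of the reproducible list, the count was 1 to 2 genes and 1 to 2 regions, and the pathway count 1 to 4; mig-14 was lost without replicate 1. With TGATAA alone, 1 of the 2 reproducible summits held a match. Of the 24 pooled regions, 6 held a match within 50 bp of the summit and 11 anywhere in the region. The rank of the mom-1 region was 5 among nuclear regions alone, and 17 to 31 with either replicate left out. With replicate summits required within 100 bp of the pooled summit, an alternative chosen after seeing the data, 10 of the 24 pooled regions were found in both replicates in place of 16. The same stricter count was not made over all nuclear pooled regions. The cause was not tested beyond what each narrower choice leaves out by its construction. No paired analysis was possible because the labels give 1 group and no test was made. Read depth is unknown, so a gene without a reproducible region may still be bound below what these libraries detect.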
